A study of Mus musculus with 24 samples.

Results

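The data compared Setd3 knock-out with wild-type CJ9 mouse embryonic stem cells after 2 days in serum-free endoderm differentiation medium, before Activin A was added. The 6 libraries were taken by their labels as knock-out or wild-type at day 2, replicates 1 to 3 of each, out of 24 libraries in 8 groups in all. Both genotypes were CJ9 cells grown with LIF on inactivated mouse embryonic fibroblasts and separated from that feeder layer before differentiation. The knock-out was made with CRISPR-Cas9 and is a single line. Loss of Setd3 and other differences of that line therefore cannot be told apart, and a genotype effect below means this line against the wild-type. The 3 knock-out and 3 wild-type libraries of day 0, the undifferentiated cells, were used beside those of day 2. Polyadenylated RNA was sequenced, and the study's labels place the comparison in a differentiation towards endoderm. The labels do not say that replicates were separate cultures, so p-values measure the spread between these libraries, which may be technical.

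SETD3 is a SET-domain protein known as a methyltransferase that modifies a histidine of actin. Embryonic stem cells that leave LIF pass from a naive state, held by a network of transcription factors such as ESRRB, KLF2 and NR5A2, through a formative state towards an epiblast that can answer Wnt, BMP and Nodal signals with primitive streak genes. Along the way the cells also remodel DNA methylation and metabolism, and many genes of cilia, axon guidance and signalling receptors are regulated along with it.

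The day 2 libraries held between 18531390 and 20477385 gene counts. Levels below are CPM, a gene's counts over the library's total after TMM scaling, and fold changes are log2 values of knock-out over wild-type from edgeR's quasi-likelihood test. The ± after a log2 value is that value divided by the root of its F statistic, which stands in for a standard error. A gene was called when its Benjamini-Hochberg adjusted p over the 17144 genes tested was under 0.05. The first principal component took 75% of the variance and separated the genotypes, from -30.2 to -26.9 in the knock-out and from 23 to 34.2 in the wild-type. Spearman's rho was 0.9963 to 0.9971 within the knock-out and 0.9955 to 0.9959 within the wild-type, and 0.9795 to 0.9867 between them. Pou5f1, which marks pluripotent cells, was at 394, 369 and 372 CPM in the knock-out, against 304, 328 and 322 CPM in the wild-type. The formative marker Otx2 was at 278, 280.0 and 277 CPM in the knock-out, against 261, 259 and 272 CPM in the wild-type. Genes of embryonic stem cells were thus abundant in all 6 libraries. Fibroblast feeder genes summed to between 173.7 and 279.2 CPM in the knock-out and between 208.2 and 234.2 CPM in the wild-type over 21 genes, with Col3a1 called higher and Fstl1 lower. The call of Col3a1 was lost without any 1 library other than knock-out replicate 3.

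Differences between the genotypes were spread over the transcriptome and were mostly under 2-fold. Of 17144 genes tested, 5480 were called, or 32%, 2783 of them higher in the knock-out, or 16.2%, and 2697 lower, or 15.7%. At least 2-fold differences were fewer, 1255 or 7.32%, and lay mostly on the lower side. Of these, 332 were higher, or 1.94%, and 923 lower, or 5.38%. Their direction went with the higher genotype mean. At 100 CPM or more 27 were higher and 8 lower, and at 10 to 100 CPM 86 and 120. At 1 to 10 CPM 142 were higher and 526 lower, and under 1 CPM 77 and 269. The 3 knock-out libraries lay entirely above or below the 3 wild-type libraries for 8401 genes, or 49%. At day 0 the same test called 3611 genes, or 21.1%, with 1810 higher and 1801 lower.

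Direction went with the level of the gene. Among 2617 genes at 100 CPM or more in the higher genotype, 1017 were called higher in the knock-out (38.9%) and 166 lower (6.34%), with a median log2 fold change of 0.108. Among 4361 genes at 1 to 10 CPM, 316 were called higher (7.25%) and 1035 lower (23.7%), with a median of -0.187. Genes at 10 to 100 CPM were split about evenly, with 1371 higher and 1222 lower of 6772. Scaling the libraries by DESeq2's size factors left these counts at 1011 higher and 162 lower for the abundant genes and at 318 higher and 1034 lower for those at 1 to 10 CPM. Knock-out libraries had between 20491 and 20627 genes with at least 1 count, against 20946 to 21159 in the wild-type, and TMM factors of 0.9739 to 0.9826 in the knock-out against 1.025 to 1.04 in the wild-type. Their part in the tilt was not tested. Shares of gene lists are therefore set below beside the 16.2% higher and 15.7% lower of all genes and, for lists with most of their tested members, or as many as not, at 100 CPM or more, beside the 38.9% and 6.34% of that class.

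**Figure D1:**
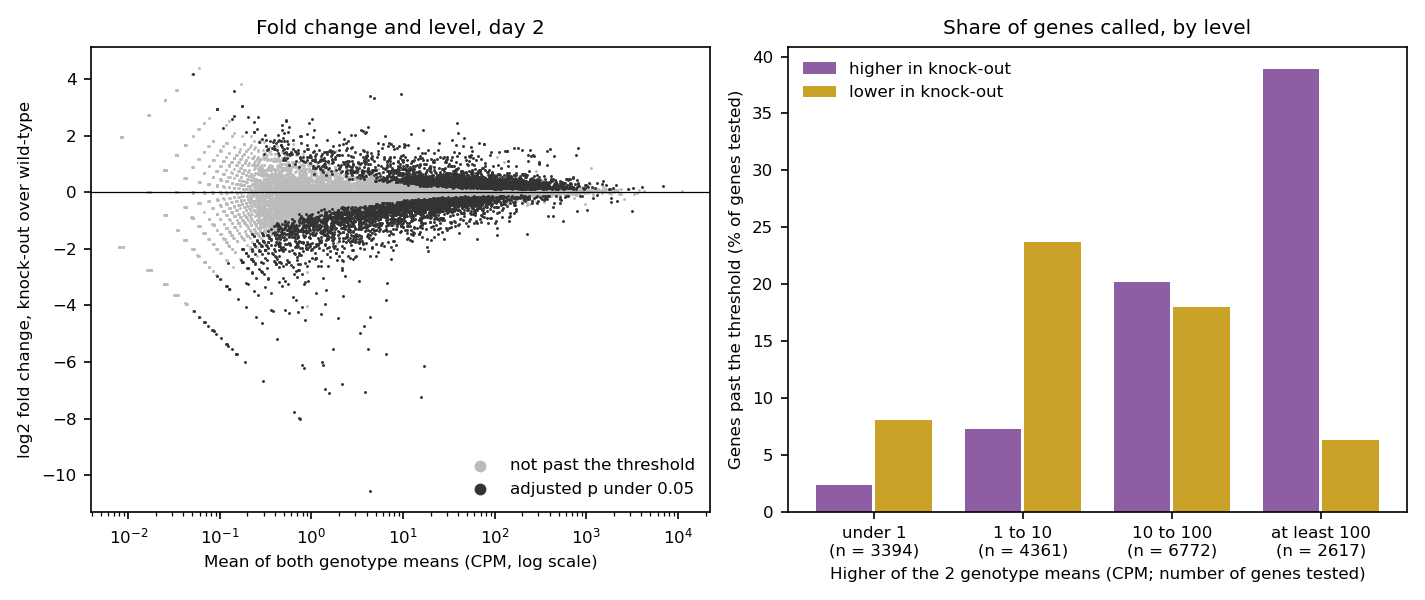
Left, each tested gene's log2 fold change (knock-out over wild-type, day 2) against the mean of both genotype means in CPM, on a log axis, with called genes dark. Right, bars of the share of tested genes called higher and called lower in the knock-out, by the higher of the genotype means. Called genes of at least 100 CPM lie mostly above 0 (38.9% higher, 6.34% lower) and those at 1 to 10 CPM mostly below it (7.25% higher, 23.7% lower).

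Setd3 itself (ENSMUSG00000056770) had 33.9, 29.6 and 29.2 CPM in the knock-out, against 97.1, 97.2 and 98.2 CPM in the wild-type. Its log2 fold change was -1.66 ± 0.06 (adjusted p = 8.06e-16), so its transcripts were reduced in all 3 knock-out libraries and absent from none. The labels do not name the edited exon.

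The far end of chromosome 12, where Setd3 lies, held runs of genes that moved in 1 direction. In GRCm38, of the 42 genes at 10 CPM or more between 90 Mb and Setd3, from Cep128 to Vrk1, 40 were called higher and none lower, with a median log2 fold change of 1.30. Beyond the start of Setd3, at 108106431, 52 of 55 other genes were called lower and 1 higher, with a median of -0.89. The medians of the same genes at day 0 were 1.21 and -0.73, and the 260 genes before 90 Mb had a median of 0.05 at day 2. That boundary was chosen after the values were seen. The 845 tested genes of chromosome 8 had a median of 0.21, with 343 called higher and 56 lower, while the medians of the other autosomes lay between -0.05 and 0.02. Without chromosome 8 and chromosome 12 from 90 Mb, 4949 genes were called, 2384 higher and 2565 lower, or 30.7% of 16115. Genes named from these stretches are marked as such below, and the counts of gene lists include members that lie on them.

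Among called genes that reached 100 CPM in the higher genotype and whose groups did not overlap, 5 of the 6 highest fold changes came from the raised stretch of chromosome 12. Itpk1, an inositol phosphate kinase gene, had 121, 120.4 and 108 CPM in the knock-out, against 36.8, 35.3 and 36.3 CPM in the wild-type. Its log2 fold change was 1.69 ± 0.08 (adjusted p = 5.37e-14). Btbd7 was at 1.55 ± 0.05, Ttc7b at 1.69 ± 0.09 and Ccdc88c at 1.56 ± 0.11. Zfp42 on chromosome 8, in the same class, encodes the stem cell marker REX1. It had 102, 116 and 95.8 CPM in the knock-out, against 21.3, 34.2 and 39.2 CPM in the wild-type, a log2 fold change of 1.73 ± 0.16 (adjusted p = 2.75e-07).

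Lower genes of the same class were led by Rapgef5, an exchange factor for RAP proteins, at -1.50 ± 0.12, which lies with the tryptophanyl-tRNA synthetase gene Wars (-1.08 ± 0.05) in the lowered stretch of chromosome 12. The other 4 lie elsewhere. Peg3, a paternally expressed imprinted zinc finger gene, had 114, 113 and 127 CPM in the knock-out, against 349, 335 and 307 CPM in the wild-type, or -1.49 ± 0.09 on the log2 scale (adjusted p = 2.61e-10). Prtg, which encodes protogenin, a cell surface protein of the early embryo, had 58.6, 65.4 and 65 CPM in the knock-out, against 182, 141 and 126 CPM in the wild-type (-1.25 ± 0.16, adjusted p = 1.07e-05). In both genes every knock-out library was below every wild-type library, as the rule for this class required. Vcan, the gene of the extracellular matrix proteoglycan versican, was at 63.7 ± 2.86 CPM in the knock-out and 137 ± 5.45 CPM in the wild-type (SD, n = 3 each; -1.11 ± 0.09, adjusted p = 2.89e-09), and Pgap1, whose enzyme remodels GPI anchors, was at -1.02 ± 0.11 (adjusted p = 2.41e-07).

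The 12 highest fold changes among called genes of at least 10 CPM without overlap between groups included 4 transcription factor genes of the naive network. Esrrb, an orphan nuclear receptor, had 66.1, 77.7 and 54.3 CPM in the knock-out, against 7.24, 13.1 and 16.5 CPM in the wild-type. Its log2 fold change was 2.43 ± 0.22 (adjusted p = 2.58e-07). Nr5a2, another orphan nuclear receptor, was at 1.74 ± 0.21, and Klf2 on chromosome 8 was at 1.86 ± 0.15. The fourth is Zfp42. Esrrb lies on chromosome 12 before 90 Mb, outside the raised stretch. In these 4 genes wild-type replicate 1 was the lowest of the wild-type libraries. All knock-out libraries were above all wild-type ones, as the rule for this class required. The highest fold change of the naive list was that of Tcl1, a kinase cofactor gene in the raised stretch of chromosome 12, at 3.39 ± 0.28. Over the list 14 of 17 genes were called higher, or 82.4% against 16.2% of all genes, and 1, the STAT3 feedback inhibitor gene Socs3, lower (-0.89 ± 0.23). Of 11 core pluripotency genes 7 were higher, or 63.6%, and 1 lower, a lower call that was lost without knock-out replicate 1 or 2 or wild-type replicate 1 or 2. Of 17 formative genes 2 were higher and 2 lower, or 11.8% each way. At 100 CPM or more, the level of 8 of these core and 11 of these formative genes, 38.9% of all genes were higher and 6.34% lower. With the day 2 libraries fitted alone 6 formative genes were lower. The lower count was 1 without any 1 knock-out library and 0 without wild-type replicate 1, when 1 was higher.

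The other genes at that end are given next, and whether they are tied to the naive network was not tested. Uba1y, the Y-linked copy of a ubiquitin-activating enzyme gene, had 17.6, 15.8 and 18.8 CPM in the knock-out, against 1.53, 1.9 and 1.24 CPM in the wild-type, the highest fold change of this class (3.48 ± 0.22, adjusted p = 1.65e-11). Its X-linked relative Uba1 was at 652, 635 and 636 CPM in the knock-out, against 588, 627 and 583 CPM in the wild-type (0.10 ± 0.04, adjusted p = 0.0522), and reads of these copies may be split between them. Zfy1, a Y-linked zinc finger gene with a near copy, was also higher, at 9.94, 8.36 and 7.83 CPM in the knock-out, against 0.816, 0.685 and 1.09 CPM in the wild-type (3.33 ± 0.32, adjusted p = 3.31e-08). Every knock-out library was above every wild-type library for Zfy1 too, while for Uba1y the rule of choice required it. Ddx3y and Uty on the same chromosome were at -0.08 ± 0.08 and 0.10 ± 0.06, neither past the threshold, and Eif2s3y rose by 0.24 ± 0.06 (adjusted p = 0.0032).

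Jam2, a junctional adhesion molecule gene, had 9.69, 11.6 and 9.08 CPM in the knock-out, against 2.21, 2.9 and 2.54 CPM in the wild-type (1.99 ± 0.18, adjusted p = 4.26e-08). Bnc2, a zinc finger gene, had 15.9, 15.4 and 15.6 CPM in the knock-out, against 4.94, 3.74 and 5.54 CPM in the wild-type (1.72 ± 0.14, adjusted p = 2.5e-09), and the zinc finger gene Zfp936 was at 1.72 ± 0.13. AU018091 had 24, 27.3 and 30.7 CPM in the knock-out, against 3.55, 6.48 and 7.93 CPM in the wild-type (2.20 ± 0.19, adjusted p = 6.73e-08). In each of these the lowest knock-out library was above the highest wild-type library, as the rule for this class required. The adjacent genes Triml1 and Triml2 on chromosome 8, of the tripartite motif family, were at 2.05 ± 0.23 and 2.10 ± 0.23, and Clmn in the raised stretch of chromosome 12 was at 1.93 ± 0.16.

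At the other end, the streak gene T (Brachyury) had 0.352, 0.051 and 0.20 CPM in the knock-out, against 42, 33.2 and 17.3 CPM in the wild-type, and Lhx1, a homeobox gene of the streak and anterior mesendoderm, had 0.402, 0.153 and 0.15 CPM in the knock-out, against 15.3, 14 and 8.76 CPM in the wild-type. Wild-type replicate 3 was the lowest wild-type library for both. The streak and mesendoderm list as a whole summed to 14.82, 16.87 and 17.96 CPM in the knock-out and to 136.3, 111.6 and 62.17 CPM in the wild-type, with 10 of 14 genes called lower, or 71.4%, and none higher. At 1 to 10 CPM, where 8 of the 14 lie, 23.7% of all genes were lower. The list was already lower at day 0, with 11 of the 14 called lower and none higher. Its median log2 fold change was -3.63 at day 0 and -3.54 at day 2. For T the fold change was -7.06 at day 0 and -7.22 at day 2, without a call for the difference (adjusted p = 0.98). Lhx1 was at -8.41 at day 0 and -5.72 at day 2, also without a call for the difference (adjusted p = 0.751). Fewer cells of a type and less RNA per cell cannot be told apart in these bulk libraries.

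Lower genes outside the streak were varied. Dgkk, an X-linked diacylglycerol kinase gene, had 0.954, 0.968 and 1.95 CPM in the knock-out, against 15.1, 13.2 and 7.88 CPM in the wild-type (-3.22 ± 0.53, adjusted p = 0.000196). Zc3hav1l, a relative of an antiviral zinc finger gene, had 4.87, 7.85 and 8.68 CPM in the knock-out, against 36.8, 27.8 and 26.7 CPM in the wild-type (-2.09 ± 0.22, adjusted p = 6.57e-07). Pkd1l1, a polycystin family gene whose product acts in the sensing of left-right asymmetry at the embryonic node, had 2.41, 3.01 and 3.69 CPM in the knock-out, against 15, 11.5 and 11.3 CPM in the wild-type (-2.05 ± 0.29, adjusted p = 2.52e-05). That no knock-out library reached the lowest wild-type library in these 3 genes follows from how they were chosen. Prkcb, a protein kinase C gene, was at 7.56 ± 0.551 CPM in the knock-out and 29 ± 1.76 CPM in the wild-type (-1.94 ± 0.17, adjusted p = 5.72e-09). Emilin2, an extracellular matrix glycoprotein gene, was at 3.58 ± 0.602 CPM in the knock-out and 13.1 ± 0.371 CPM in the wild-type (-1.87 ± 0.29, adjusted p = 3.71e-05). Eml1, a microtubule-associated protein gene in the lowered stretch of chromosome 12, was at -1.94 ± 0.19, further down than the median of that stretch.

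**Figure D2:**
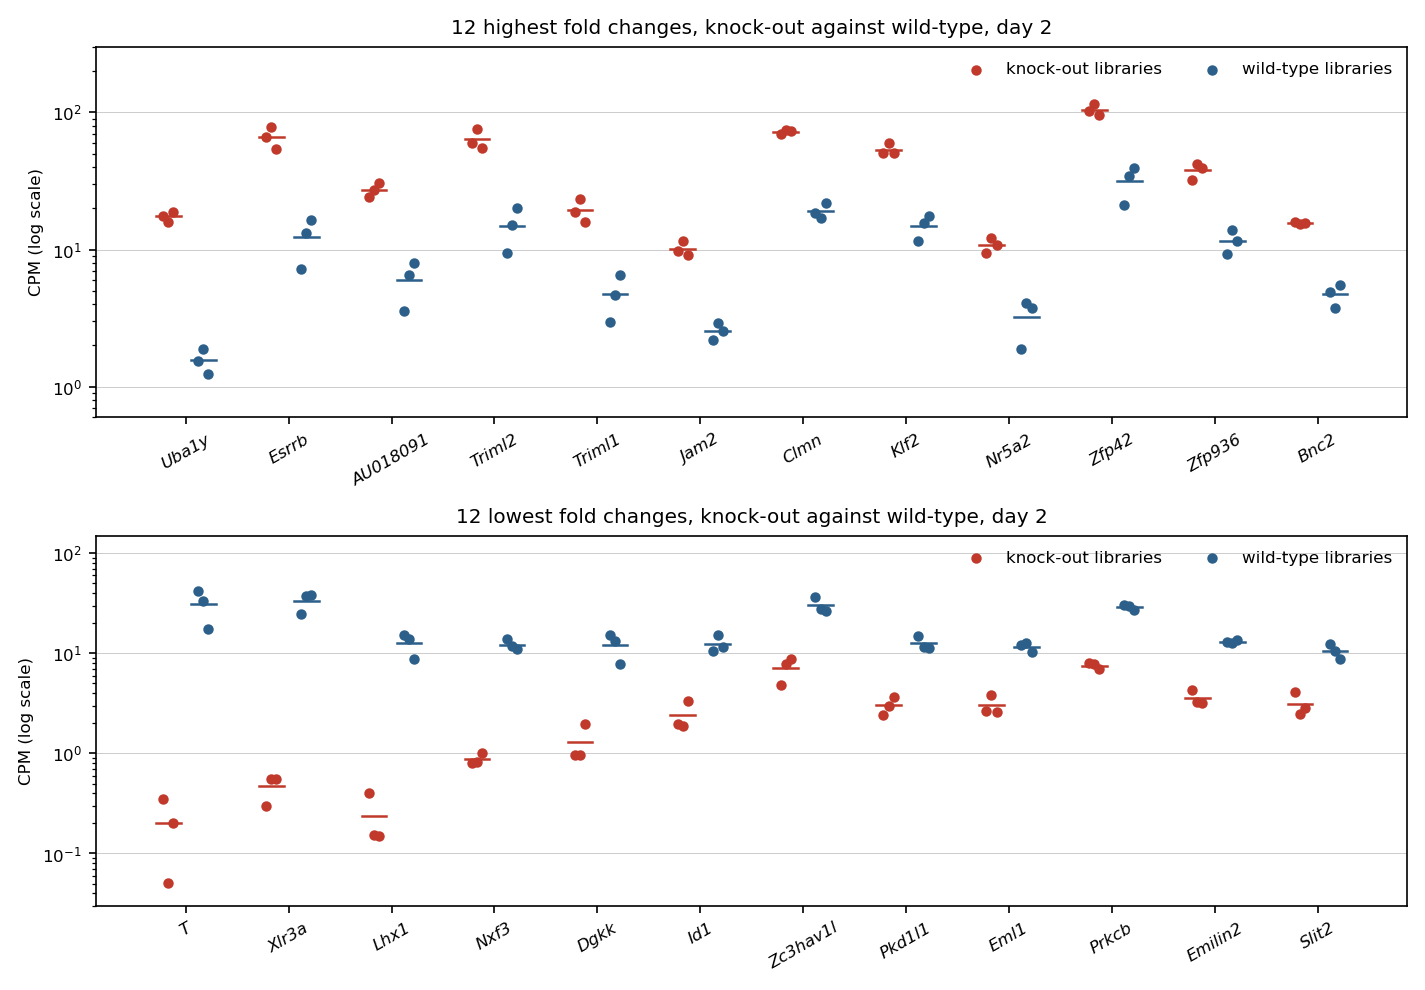
CPM of each library on a log axis for the 12 genes with the highest (top) and the 12 with the lowest (bottom) log2 fold changes at day 2, among called genes of at least 10 CPM whose groups do not overlap. Points are libraries, 3 of the knock-out left of 3 of the wild-type for each gene, and short lines are group means. Uba1y leads the top row with a log2 fold change of 3.48, and T the bottom row with -7.22.

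Cilia genes had the largest share of lower members of the 58 lists after the neighbours of Setd3 and the streak genes. Of 40 tested cilia genes, 25 were called lower and 2 higher, or 62.5% and 5%, against 15.7% and 16.2% of all genes tested, and the median log2 fold change was -0.36. The primary cilium is a sensory projection built by intraflagellar transport (IFT), in which kinesin and dynein motors carry IFT protein complexes along microtubules, while the BBSome moves membrane proteins. The falls ran through all of these parts. None of the 40 reached 100 CPM and 8 were at 1 to 10 CPM, where 23.7% of all genes were lower, while 18% were lower at 10 to 100 CPM. The summed level was 664.9, 695.2 and 695.4 CPM in the knock-out, against 884.5, 858.3 and 830.5 CPM in the wild-type, without overlap.

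Motor subunits fell by moderate amounts with little spread. Kif3b, a subunit of the anterograde kinesin motor, had 29.4, 29.8 and 29.5 CPM in the knock-out, against 45, 43.8 and 41.1 CPM in the wild-type (-0.55 ± 0.06, adjusted p = 4.91e-07). Dync2h1, the heavy chain of the retrograde dynein, had 32.5, 29.4 and 34.4 CPM in the knock-out, against 53.1, 49.5 and 50.4 CPM in the wild-type (-0.67 ± 0.08, adjusted p = 1.26e-06), and Dync2li1, its light intermediate chain, had 6.78, 6.32 and 7.53 CPM in the knock-out, against 13.4, 15.1 and 13.2 CPM in the wild-type (-1.01 ± 0.12, adjusted p = 1.03e-06). All knock-out libraries were below all wild-type libraries in these 3 genes. Among IFT genes, Ift74 was at -0.63 ± 0.09, Ift57 at -0.85 ± 0.12, Ift81 at -0.68 ± 0.10 and Ift80 at -0.39 ± 0.06, all called.

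Bbs1, a core BBSome gene, fell most among called members, with 1.61, 1.38 and 2.69 CPM in the knock-out, against 8.3, 7.54 and 5.8 CPM in the wild-type (-1.93 ± 0.24, adjusted p = 1.14e-06). Bbs7 had 5.12, 5.81 and 6.29 CPM in the knock-out, against 12.1, 9.54 and 8.39 CPM in the wild-type (-0.80 ± 0.14, adjusted p = 7.79e-05). Foxj1, a forkhead factor that drives genes of motile cilia, had 6.28, 5.1 and 5.54 CPM in the knock-out, against 22.7, 18.2 and 10.7 CPM in the wild-type (-1.61 ± 0.36, adjusted p = 0.00249), with wild-type replicate 3 nearest to the knock-out. The axonemal dynein genes Dnah5 and Dnah11 were at -1.77 ± 0.37 and -1.80 ± 0.24, the second on the lowered stretch of chromosome 12. The 2 members that rose were Rfx2, a factor of the RFX family that acts on ciliary promoters, with 11.9, 16.9 and 12.3 CPM in the knock-out, against 6.91, 8.01 and 8.96 CPM in the wild-type (0.79 ± 0.14, adjusted p = 0.000148), and Ttc8, a BBSome gene in the raised stretch of chromosome 12 (0.55 ± 0.10). Rfx3 and Rfx4 of the same family were at -0.35 ± 0.12 and -0.98 ± 0.22, both called lower.

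At day 0, 6 cilia genes were called lower and 1 higher, with a median of -0.16. The difference between the days was tested directly. It was past the threshold for 7 members, all below, namely Kif3b, Dync2h1, Dync2li1, Ift57, Ift74, Ift80 and Ift81, where Ift80 was at 0.05 at day 0 and differed by -0.45 ± 0.09 (adjusted p = 0.00205). Bbs1 was already lower at day 0 (-0.93, adjusted p = 0.0033). Leaving out any single library of the comparison, or using DESeq2, kept the count of lower cilia genes within 1.5 times of 25.

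**Figure D3:**
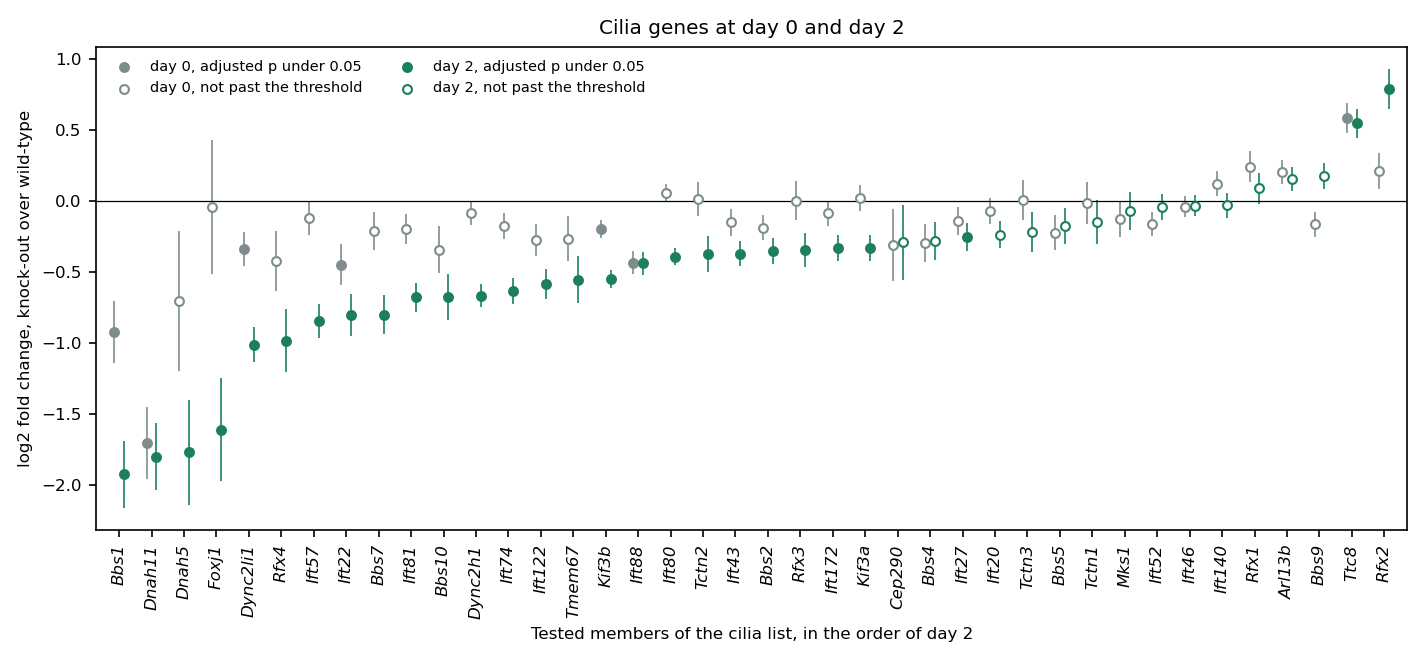
log2 fold changes of knock-out over wild-type for the 40 tested cilia genes at day 0 (grey) and day 2 (green), in the order of day 2. Filled points have an adjusted p under 0.05, and error bars are the fold change over the square root of F. At day 2, 25 genes were called below 0 and 2 above, and at day 0, 6 below and 1 above.

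Promoter windows of the fallen cilia genes were searched for the X-box, the motif bound by RFX factors. RefSeq windows of 300 bases on GRCm38.p6, most of each before the gene's start, were available for 19 of the 25 lower members. The X-box consensus, an imperfect inverted repeat searched on both strands, matched in 4 of these 19, or 21.1%, in 1 of the 15 other tested members, or 6.67%, and in 560 of 27025 genes with a window, or 2.07%. The half-site GTTGCC, which can overlap those matches, was in 10 of 19 lower members, or 52.6%, in 8 of the 15 others, or 53.3%, and in 14.1% of all genes. A match describes letters and is not a binding site. The 4 windows with the consensus are shown because they belong to the motor and BBSome genes given above, chosen after values were seen, 5′ to 3′ on the gene's strand, with the matches in capitals.
Bbs1 (chr19:4906578-4906877, minus strand): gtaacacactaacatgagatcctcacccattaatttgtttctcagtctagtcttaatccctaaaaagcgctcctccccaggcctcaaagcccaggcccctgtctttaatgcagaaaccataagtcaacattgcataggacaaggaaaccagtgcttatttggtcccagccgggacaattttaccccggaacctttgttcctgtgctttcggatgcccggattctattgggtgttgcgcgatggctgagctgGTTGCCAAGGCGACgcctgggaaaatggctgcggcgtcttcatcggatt
Kif3b (chr2:153291166-153291465, plus strand): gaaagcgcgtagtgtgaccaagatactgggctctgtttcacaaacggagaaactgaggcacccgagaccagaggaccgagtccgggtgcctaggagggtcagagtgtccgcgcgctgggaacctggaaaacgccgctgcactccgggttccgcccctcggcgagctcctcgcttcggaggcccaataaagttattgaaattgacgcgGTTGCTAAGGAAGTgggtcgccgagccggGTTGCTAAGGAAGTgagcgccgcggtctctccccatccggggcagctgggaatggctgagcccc
Dync2h1 (chr9:7177009-7177308, minus strand): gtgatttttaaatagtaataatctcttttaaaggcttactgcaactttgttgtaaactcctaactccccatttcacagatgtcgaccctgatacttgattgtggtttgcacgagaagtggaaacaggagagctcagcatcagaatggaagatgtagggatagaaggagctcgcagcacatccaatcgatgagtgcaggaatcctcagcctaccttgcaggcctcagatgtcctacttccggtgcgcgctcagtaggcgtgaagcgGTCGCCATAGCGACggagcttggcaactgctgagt
Bbs7 (chr3:36613340-36613639, minus strand): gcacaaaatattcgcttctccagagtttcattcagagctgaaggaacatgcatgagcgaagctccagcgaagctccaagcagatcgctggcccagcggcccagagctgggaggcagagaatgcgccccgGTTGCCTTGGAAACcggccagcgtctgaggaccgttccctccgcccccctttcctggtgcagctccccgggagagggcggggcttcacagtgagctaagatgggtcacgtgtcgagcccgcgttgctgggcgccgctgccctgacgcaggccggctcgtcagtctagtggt
The Kif3b window holds the same 14 letters at 2 places, and each of the other windows holds 1.

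In the BMP list more genes were called lower than higher. BMP ligands signal through receptors and SMAD proteins, whose standard targets are the Id genes and the inhibitory Smads. Of 23 tested members, 11 were called lower and 2 higher, or 47.8% and 8.7%, and 10 were not called, against 15.7% lower and 16.2% higher of all genes. The median log2 fold change was -0.70. At 1 to 10 CPM, where 10 of the 23 lie, 23.7% of all genes were lower and 7.25% higher. At day 0, 3 members were lower and 3 higher.

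Among targets, Id1 had 1.96, 1.89 and 3.34 CPM in the knock-out, against 10.6, 15.1 and 11.6 CPM in the wild-type (-2.37 ± 0.38, adjusted p = 0.000129), and was among the 12 lowest genes overall. Id3 had 40, 46.2 and 52.3 CPM in the knock-out, against 70.8, 81.9 and 72.6 CPM in the wild-type (-0.70 ± 0.21, adjusted p = 0.0152). Id2 was at -0.61 ± 0.13 and Smad6 at -0.73 ± 0.23, both called. All knock-out libraries lay below all wild-type libraries for these 4 targets. Id4 went the other way, at 1.10 ± 0.28 (adjusted p = 0.00421). So did the inhibitory Smad7, which is counted and given with the Nodal and Activin list below. For Id1 the fold change at day 0 was -0.26 (adjusted p = 0.556), and the day 2 effect differed from it by -2.11 ± 0.47 (adjusted p = 0.0112).

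The receptor gene Bmpr1b had 3.37, 3.42 and 2.79 CPM in the knock-out, against 8.92, 8.01 and 5.34 CPM in the wild-type (-1.22 ± 0.20, adjusted p = 4.75e-05). Ligand genes were split. Bmp2 had 0.301, 0.153 and 0.249 CPM in the knock-out, against 2.69, 2.63 and 2.64 CPM in the wild-type (-3.47 ± 0.67) and Bmp7 was at -0.85 ± 0.31, whereas Bmp4 was higher, with 6.43, 5.4 and 7.23 CPM in the knock-out, against 3.26, 4.0 and 3.06 CPM in the wild-type (0.89 ± 0.20, adjusted p = 0.00176). Extracellular antagonists were low in the knock-out as well. Nog had 0, 0.051 and 0 CPM in the knock-out, against 1.49, 1.84 and 1.4 CPM in the wild-type, with 1 count over the 3 knock-out libraries, and Chrd, the gene of chordin, was at -1.07 ± 0.31 (adjusted p = 0.0124).

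Wnt pathway genes are given by role, and differences between these lists were not tested. Wnt ligands bind Frizzled and LRP receptors and act through beta-catenin and TCF factors on targets such as Axin2 and T. Of 18 tested receptor genes, 8 were called lower (44.4%) and 2 higher (11.1%), or 1 higher without wild-type replicate 2. Of 16 ligand genes, 5 were lower (31.2%) and 1 higher (6.25%), and of 19 canonical targets, 7 were lower (36.8%) and 2 higher (10.5%), or 1 higher without any 1 library. Of all genes 15.7% were lower and 16.2% higher, and at 1 to 10 CPM, where 8 of the ligands, 7 of the targets and 4 of the receptors lie, 23.7% were lower. Of 22 genes of the beta-catenin and TCF complex 1 was lower (4.55%) and 5 higher (22.7%), or 3 higher without any 1 library other than wild-type replicate 3. That higher share is above the 16.2% of all genes and below the 38.9% at 100 CPM or more, where 8 of the 22 lie. At day 0, 10 targets, 7 ligands and 3 receptors were lower, and 4 receptors but no target or ligand higher. The median log2 fold change of the targets was -0.45 at day 0 and -0.18 at day 2. Their day 2 effect was above that of day 0 for 4 members and below for 1.

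Lower receptors included Fzd10 with 0.854, 0.816 and 1.15 CPM in the knock-out, against 3.36, 3.37 and 2.54 CPM in the wild-type (-1.71 ± 0.24, adjusted p = 5.64e-06), Fzd1 at -1.55 ± 0.34, Fzd3 at -0.65 ± 0.11, Fzd2 at -0.56 ± 0.11 and the receptor tyrosine kinase gene Ror2 at -0.95 ± 0.17. Lgr5, an R-spondin receptor and Wnt target, had 0.552, 0.764 and 0.748 CPM in the knock-out, against 4.75, 3.06 and 3.16 CPM in the wild-type (-2.40 ± 0.50, adjusted p = 0.00111). Its relative Lgr4 was higher, at 107, 104 and 91.2 CPM in the knock-out, against 80.5, 75.4 and 73.3 CPM in the wild-type (0.40 ± 0.06, adjusted p = 1.69e-05), as was the co-receptor gene Lrp5 (0.33 ± 0.09). The 2 R-spondin receptor genes thus lay on opposite sides, with no overlap between groups in either.

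Among ligands, Wnt8a had 0.301, 0.459 and 0.399 CPM in the knock-out, against 10.7, 9.64 and 4.46 CPM in the wild-type and Wnt3 0.201, 0.153 and 0.15 CPM in the knock-out, against 3.36, 3.06 and 1.55 CPM in the wild-type, each with wild-type replicate 3 lowest among wild-type libraries. Wnt5b was at -0.78 ± 0.17 and Wnt2b at -1.44 ± 0.30, both called, and Wnt9a was higher (0.70 ± 0.22, adjusted p = 0.0174). Wnt9a lost its call without knock-out replicate 3 or wild-type replicate 3, when no ligand was called higher. Among targets, T, Sp5, Cdx2 and, in the lowered stretch of chromosome 12, Sp8 were lower with levels near 0 in the knock-out, and Tnfrsf19 had 7.18, 7.59 and 9.03 CPM in the knock-out, against 27.4, 25.7 and 18.8 CPM in the wild-type (-1.60 ± 0.22, adjusted p = 1.62e-05). Axin2, the standard feedback target, had 15.5, 18.9 and 17.5 CPM in the knock-out, against 20.9, 16 and 14.3 CPM in the wild-type at day 2 with a log2 fold change of 0.01 ± 0.19 (adjusted p = 0.968), whereas at day 0 it was at -1.39 (adjusted p = 1.32e-05). The difference between the days was 1.40 ± 0.26 (adjusted p = 0.00218). Of 13 secreted antagonists 5 were lower (38.5%) and none higher, or 3 lower without wild-type replicate 2. At 1 to 10 CPM, where 7 of the 13 lie, 23.7% of all genes were lower. The antagonist gene Dkk1 was at 0.10, 0.051 and 0.0499 CPM in the knock-out, against 4.51, 3.58 and 1.92 CPM in the wild-type.

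Other signalling lists were split. In the Hedgehog list 3 of 15 rose and 2 fell, or 20% and 13.3%, near the shares of all genes. The targets Gli1, with 13.1, 14.2 and 12.9 CPM in the knock-out, against 5.57, 4.95 and 7.57 CPM in the wild-type (1.15 ± 0.15, adjusted p = 2.52e-06), and Ptch1 (0.66 ± 0.12, adjusted p = 0.000253) were higher, while the ligand gene Shh had 0.10, 0 and 0 CPM in the knock-out, against 3.07, 3.0 and 1.55 CPM in the wild-type. In the Nodal and Activin list 6 of 21 were higher and 2 lower, or 28.6% and 9.52% against 16.2% and 15.7% of all genes, among them the co-receptor gene Tdgf1 (0.72 ± 0.19) and the inhibitory Smad7 (0.88 ± 0.17, adjusted p = 0.000592) on the higher side and Nodal (-1.02 ± 0.20) on the lower. In the retinoic acid list 3 of 23 were higher (13%) and 4 lower (17.4%), or 7 lower with the day 2 libraries fitted alone. The retinoic acid degrading enzyme gene Cyp26a1 had 2 counts over the knock-out libraries and 4.17, 5.74 and 3.06 CPM in the wild-type. Of the FGF list 9 of 19 lie at 1 to 10 CPM, where 7.25% of all genes were higher and 23.7% lower. That list had 4 higher (21.1%) and 6 lower (31.6%). Without knock-out replicate 1 or knock-out replicate 3 it had 2 higher and 3 lower, and the higher count was 2 without wild-type replicate 1 and 1 without wild-type replicate 2.

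In some further signalling lists the share of called members was under the 32% of all genes. The Notch list had 3 higher and 4 lower of 24, with 1 higher without knock-out replicate 2 or wild-type replicate 1 and 2 lower without knock-out replicate 1. ERK feedback genes had 2 higher and 3 lower of 28, with 1 higher without wild-type replicate 1 or wild-type replicate 2, and YAP targets had 2 higher and 3 lower of 19. That YAP count was 1 lower without knock-out replicate 1, knock-out replicate 2 or wild-type replicate 1, and 1 higher without knock-out replicate 3 or wild-type replicate 2. With the day 2 libraries fitted alone, 4 ERK feedback genes were higher, and 6 members of that list and 6 YAP targets lower.

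Imprinted genes, expressed from 1 parental allele, had 7 of 31 tested members higher and 11 lower, or 22.6% and 35.5%, against 16.2% and 15.7% of all genes. Paternally expressed Peg3 was lower as given above, and its neighbour Usp29 had 2.51, 2.8 and 2.59 CPM in the knock-out, against 11, 10.3 and 8.34 CPM in the wild-type (-1.91 ± 0.16, adjusted p = 3.2e-09). Paternally expressed Mest had 129.7, 129.9 and 133 CPM in the knock-out, against 205, 207 and 209.6 CPM in the wild-type (-0.66 ± 0.11, adjusted p = 0.000158), and Plagl1, a zinc finger gene, was at -1.35 ± 0.24. All knock-out libraries of these genes were below all wild-type ones. Meg3, Rian, Mirg and Rtl1, also lower, lie in the lowered stretch of chromosome 12. Higher members included a group of maternally expressed genes of growth control. Phlda2 had 11.2, 11.9 and 12.4 CPM in the knock-out, against 3.26, 4.9 and 4.09 CPM in the wild-type (1.53 ± 0.21, adjusted p = 7.07e-06), Cdkn1c was at 1.05 ± 0.20, Igf2r at 0.67 ± 0.14 and Ascl2 at 0.93 ± 0.32. Grb10 was at 0.94 ± 0.21 and paternally expressed Peg10 at 0.56 ± 0.18, so members of both parental classes stood on the higher side. The maternally expressed H19 was at 43.2, 31 and 14.7 CPM in the knock-out, against 50, 66.2 and 52.2 CPM in the wild-type, lower in every knock-out library but without a call (-0.92 ± 0.42, adjusted p = 0.106). For Peg3, Usp29 and Mest the day 0 fold changes were -1.41, -2.05 and -0.63. The day 2 effect was above that of day 0 for Phlda2 by 1.15 ± 0.27 (adjusted p = 0.0108) and for Cdkn1c by 1.03 ± 0.26 (adjusted p = 0.0157).

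Of X-linked multicopy families, 5 of 11 tested members were lower and 3 higher, or 45.5% and 27.3%. At 1 to 10 CPM, where 6 of the 11 lie, 23.7% of all genes were lower and 7.25% higher. Xlr3a, of a lymphocyte-regulated family encoded as near-identical copies, had 0.301, 0.561 and 0.549 CPM in the knock-out, against 24.6, 37 and 38.2 CPM in the wild-type (-6.13 ± 0.27, adjusted p = 3.76e-14). Xlr4a had 0.10, 0.153 and 0.249 CPM in the knock-out, against 7.1, 9.64 and 7.41 CPM in the wild-type and Xlr5a 0.151, 0.153 and 0.299 CPM in the knock-out, against 5.52, 7.01 and 7.15 CPM in the wild-type. Nxf3, an X-linked relative of the mRNA export factor genes, had 0.804, 0.816 and 0.998 CPM in the knock-out, against 14, 11.7 and 11 CPM in the wild-type (-3.80 ± 0.25, adjusted p = 3.67e-11). All 4 genes were under 1 CPM in every knock-out library. Their log2 fold changes were -6.17, -7.07, -3.75 and -3.52 at day 0. The labels do not say how reads that match several copies were counted, so values of single Xlr copies are uncertain. Rhox6 and Rhox9, homeobox genes of the reproductive tract and placenta, were higher, at 2.44 ± 0.48 and 1.66 ± 0.41, on low levels of 1.59 CPM and 1.36 CPM in the knock-out.

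Genes of DNA methylation and its removal were called only on the higher side. Of 20 members, 9 rose (45%) and none fell with all groups in the fit, while 1 was lower with the day 2 libraries fitted alone or without wild-type replicate 2. Of all genes 16.2% were higher, and of those at 100 CPM or more, where 7 of the 20 lie, 38.9%. Dnmt3l, a cofactor of the de novo methyltransferases, had 75.1, 80.7 and 79.4 CPM in the knock-out, against 20.5, 36.5 and 37 CPM in the wild-type (1.33 ± 0.17, adjusted p = 1.52e-05). Tet2, an enzyme that oxidises methylcytosine, had 10.7, 11.6 and 8.98 CPM in the knock-out, against 4.94, 5.38 and 5.03 CPM in the wild-type (1.03 ± 0.14, adjusted p = 3.65e-06). Both were higher in every knock-out library. The more abundant Dnmt3a and Tet1 were at 0.38 ± 0.11 and 0.47 ± 0.15, Uhrf1, which guides maintenance methylation, was at 0.23 ± 0.04, and Dnmt3b was at -0.02 ± 0.11 without a call. The day 2 effect was above that of day 0 for 7 of the 20 members, Dnmt3b (0.80 ± 0.16, adjusted p = 0.00481) among them.

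Of 18 germline genes that are kept silent by promoter methylation in somatic cells, 7 rose and none fell, or 4 higher without knock-out replicate 1 and 3 without wild-type replicate 1. At 1 to 10 CPM, where 10 of the 18 lie, 7.25% of all genes were higher. Rpl10l, a testis copy of a ribosomal protein gene, had 12.6, 12 and 13.6 CPM in the knock-out, against 3.07, 5.38 and 4.4 CPM in the wild-type (1.58 ± 0.20, adjusted p = 4.47e-06), and Hormad1, of the meiotic chromosome axis, had 4.37, 3.82 and 4.44 CPM in the knock-out, against 1.82, 0.896 and 1.4 CPM in the wild-type (1.60 ± 0.26, adjusted p = 5.42e-05). Ddx4, the germ cell helicase gene, had 30.1, 28.1 and 27 CPM in the knock-out, against 16.8, 22.6 and 20.4 CPM in the wild-type (0.51 ± 0.16). Levels were low except for Ddx4, and the knock-out libraries were the higher ones throughout these 3 genes.

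In the Polycomb list 11 of 30 rose and 4 fell, or 36.7% and 13.3%. Its higher share is near the 38.9% of all genes at 100 CPM or more, the class of 15 of the 30, and its lower share is above the 6.34% of that class. The higher members included genes of the repressive complex PRC2 and its partners, Mtf2 (0.45 ± 0.05, adjusted p = 7.76e-07), Eed (0.23 ± 0.04), Suz12 (0.20 ± 0.05) and Jarid2 (0.30 ± 0.06), whereas Ezh2, the catalytic subunit gene, was at 0.09 ± 0.06 without a call. PRC1 members stood on both sides, with Ring1 at 5.12, 5.35 and 5.39 CPM in the knock-out, against 9.93, 10.8 and 9.43 CPM in the wild-type (-0.93 ± 0.14, adjusted p = 1.48e-05), Cbx2 at -0.41 ± 0.05 and Phc2 at -0.65 ± 0.13 lower, and Rybp at 0.27 ± 0.05 and Cbx7 at 0.33 ± 0.11 higher. Among SET-domain and histidine methyltransferase genes other than Setd3, 2 of 20 were higher and 2 lower, or 4 lower with the day 2 libraries fitted alone, and 10% each way is under the shares of all genes. Smyd3 was at 0.44 ± 0.08 and Setd7 at -0.36 ± 0.10.

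Actin and its regulators had members on both sides. Of 9 tested actin isoform and actin-related genes, 2 rose and 1 fell, or 22.2% and 11.1%. Actb had 2147, 2047 and 2211 CPM in the knock-out, against 2084, 2037 and 2013 CPM in the wild-type (0.06 ± 0.06, adjusted p = 0.427) and Actg1 was at 0.05 ± 0.05 (adjusted p = 0.491), with overlapping groups in both. Acta2, the smooth muscle isoform, had 1.26, 1.68 and 2.29 CPM in the knock-out, against 6.91, 7.64 and 10.8 CPM in the wild-type (-2.27 ± 0.47, adjusted p = 0.00137). In the list of SRF targets and actin regulators 5 of 26 rose and 5 fell, or 19.2% each way, and 9 fell with the day 2 libraries fitted alone. At 100 CPM or more, where 7 of the 9 and 13 of the 26 lie, 38.9% of all genes were higher and 6.34% lower. The lower count was between 1 and 3 without any 1 library other than knock-out replicate 3, and the higher count was 3 without knock-out replicate 3 or wild-type replicate 1.

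Called genes of DNA replication and the cell cycle were higher, mostly by small amounts. In DNA replication and cell cycle 21 of 40 rose and none fell, or 52.5% higher, against 38.9% of all genes of at least 100 CPM, to which 25 of the 40 belong. With the day 2 libraries fitted alone, 2 were lower. The S phase kinase gene Cdk2 had 111, 115 and 114 CPM in the knock-out, against 93, 87.9 and 95.6 CPM in the wild-type (0.30 ± 0.05, adjusted p = 2.92e-05), and the replication helicase gene Mcm2 was at 0.21 ± 0.04 and the mitotic kinase gene Plk1 at 0.26 ± 0.05. The largest rises in the list belong to inhibitors of cyclin-dependent kinases. Cdkn2c had 2.51, 2.5 and 2.84 CPM in the knock-out, against 0.72, 0.949 and 0.881 CPM in the wild-type (1.62 ± 0.25, adjusted p = 2.76e-05), Cdkn2a 10.4, 10.4 and 8.48 CPM in the knock-out, against 3.93, 4.9 and 4.2 CPM in the wild-type (1.17 ± 0.22, adjusted p = 0.000205), and Cdkn1c was given with the imprinted genes. These 3 inhibitor genes were the list's only rises of at least 2-fold.

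In serine and folate one-carbon metabolism 10 of 22 rose and 3 fell, or 45.5% and 13.6%. At 100 CPM or more, where 12 of the 22 lie, 38.9% of all genes were higher and 6.34% lower. Tdh, the threonine dehydrogenase gene typical of mouse embryonic stem cells, had 81.3, 80.9 and 73 CPM in the knock-out, against 31.3, 48.3 and 42.3 CPM in the wild-type (0.95 ± 0.14, adjusted p = 2.81e-05). Gldc, of the glycine cleavage system, had 844, 859.6 and 813 CPM in the knock-out, against 579, 589 and 632 CPM in the wild-type (0.48 ± 0.06, adjusted p = 2.52e-06). The serine hydroxymethyltransferase genes Shmt1 and Shmt2 were at 0.47 ± 0.05 and 0.46 ± 0.06. Every knock-out library was above every wild-type library for these 4 genes. The lower members, among them Mthfd2l (-0.40 ± 0.13) and Aldh1l1 (-0.43 ± 0.16), numbered 0 or 1 without any 1 library other than wild-type replicate 2.

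The amino acid response list held 9 higher and 4 lower of 23, or 39.1% and 17.4%, against 16.2% and 15.7% of all genes and 38.9% and 6.34% of those at 100 CPM or more, where 10 of the 23 lie. Higher were the asparagine synthetase gene Asns with 105, 109 and 112 CPM in the knock-out, against 67.4, 76.2 and 71.2 CPM in the wild-type (0.60 ± 0.07, adjusted p = 2.1e-07), the stress gene Nupr1 with 2.96, 3.87 and 4.04 CPM in the knock-out, against 1.2, 1.16 and 1.29 CPM in the wild-type (1.57 ± 0.20, adjusted p = 1.49e-06) and the amino acid transporter gene Slc3a2 (0.41 ± 0.05). Lower were its partner in cystine uptake Slc7a11 (-0.52 ± 0.14), and Cth (-0.30 ± 0.08), Cbs (-0.31 ± 0.11) and Ddit3 (-0.36 ± 0.13), a count that fell to 2 without knock-out replicate 1, wild-type replicate 2 or wild-type replicate 3. Standard ATF4 targets stood on both sides.

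Of 30 lysosome and autophagy genes 11 rose (36.7%, against 16.2% of all genes) and 1 fell (3.33%, against 15.7%), a lower count that was 0 without knock-out replicate 2, knock-out replicate 3 or wild-type replicate 1 and 2 without knock-out replicate 1. The class of 100 CPM or more, with 38.9% higher, holds 7 of the 30. Tfeb, the transcription factor that drives lysosomal genes, had 7.79, 7.85 and 7.18 CPM in the knock-out, against 2.69, 2.63 and 3.73 CPM in the wild-type (1.33 ± 0.15, adjusted p = 2.52e-07). The hexosaminidase gene Hexa was at 0.47 ± 0.08 and the autophagy kinase gene Ulk1 at 0.44 ± 0.11. Tfeb had the highest fold change of the list, and its groups did not overlap. Of the 11 higher members, Atp6v0d1, Gabarapl2, Lamp1 and Mcoln1 lie on chromosome 8.

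In the list of oxidative stress genes 9 of 25 rose and 3 fell, or 36% and 12%, and at 100 CPM or more, where 13 of the 25 lie, 38.9% of all genes rose and 6.34% fell. Of the 9 that rose, 4 lie on chromosome 8 or the far end of chromosome 12. The list was led by the metallothionein genes, whose products bind zinc and copper. Mt1 had 76, 67.2 and 78.4 CPM in the knock-out, against 30.1, 30.5 and 31.7 CPM in the wild-type (1.26 ± 0.15, adjusted p = 2.85e-06) and its neighbour Mt2 had 15.4, 16.1 and 20.5 CPM in the knock-out, against 4.61, 6.17 and 5.75 CPM in the wild-type (1.66 ± 0.16, adjusted p = 2.21e-08). Both lie on chromosome 8 and rose further than the median of that chromosome, 0.21, and both stood at about 0 at day 0 (0.02 and 0.12). The glutathione peroxidase gene Gpx3 was lower, at -0.91 ± 0.11, and the glutathione transferase gene Gstm1 higher, at 0.72 ± 0.11. Promoters of the metallothionein genes are shown because both moved together, with the core of the metal response element, TGCACNC or TGCGCNC on either strand, in capitals. It was found in 28.2% of the 27025 RefSeq windows.
Mt1 (chr8:94178839-94179138, plus strand): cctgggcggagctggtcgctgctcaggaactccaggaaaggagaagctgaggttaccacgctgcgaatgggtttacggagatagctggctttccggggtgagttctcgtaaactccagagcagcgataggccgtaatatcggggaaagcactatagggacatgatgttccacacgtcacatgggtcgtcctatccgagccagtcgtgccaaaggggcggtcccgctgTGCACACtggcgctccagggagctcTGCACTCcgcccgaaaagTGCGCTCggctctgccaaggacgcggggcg
Mt2 (chr8:94172368-94172667, plus strand): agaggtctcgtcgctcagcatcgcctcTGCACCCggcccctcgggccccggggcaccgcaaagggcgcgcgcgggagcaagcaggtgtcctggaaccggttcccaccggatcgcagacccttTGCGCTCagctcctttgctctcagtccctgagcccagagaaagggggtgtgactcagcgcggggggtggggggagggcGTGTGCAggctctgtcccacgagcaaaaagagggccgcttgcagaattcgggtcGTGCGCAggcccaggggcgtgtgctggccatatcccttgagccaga
The Mt1 window holds 3 matches and the Mt2 window 4.

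Energy metabolism lists had called members on both sides. Cpt1a, which admits fatty acids to mitochondria, had 17.9, 18.7 and 15.3 CPM in the knock-out, against 6.57, 9.38 and 8.24 CPM in the wild-type (1.10 ± 0.11, adjusted p = 5.78e-08). The hexokinase gene Hk1 was at 52, 53.2 and 46.8 CPM in the knock-out, against 26.9, 28.5 and 29.5 CPM in the wild-type (0.84 ± 0.11, adjusted p = 3.98e-06). The pyruvate dehydrogenase kinase gene Pdk1 was at 0.76 ± 0.13, whereas the glycolytic genes Eno1, Tpi1 and Ldha were at -0.34 ± 0.07, -0.39 ± 0.13 and -0.30 ± 0.09. In the glycolysis and hypoxia list this gave 4 higher and 4 lower of 29, or 13.8% each way. At 100 CPM or more, where 17 of the 29 lie, 38.9% of all genes were higher and 6.34% lower. With the day 2 libraries fitted alone 14 of the list were lower. The lower count was 2 without knock-out replicate 1 or wild-type replicate 1 and 1 without knock-out replicate 2 or wild-type replicate 2. Of 77 nuclear genes of the respiratory chain 14 were higher (18.2%) and 6 lower (7.79%), against 16.2% and 15.7% of all genes. In that list 8 were higher without knock-out replicate 1 or wild-type replicate 1 and 9 without knock-out replicate 3. The lower count was 3 without knock-out replicate 1 or wild-type replicate 2. Cytosolic ribosomal proteins had 2 higher and 2 lower of 76, or 2.63% each way, although 71 of the symbols were at least 100 CPM, where 38.9% of genes were called higher. Without wild-type replicate 2, 5 were higher and none lower, and the lower count was 0 without knock-out replicate 1 or knock-out replicate 2 and 1 without wild-type replicate 3. At day 0, 23 of the same 76 were lower and none higher.

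Biosynthetic lists had smaller shares of higher members than the 38.9% of all genes at 100 CPM or more. Myc targets, of which 24 of 28 were in that class, had 7 higher, or 25%, and none lower, or 4 higher without wild-type replicate 3. Cholesterol synthesis, with 14 of 26 in the class, had 4 higher (15.4%) and 3 lower (11.5%), with 2 higher without wild-type replicate 2 and 6 lower with the day 2 libraries fitted alone.

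Stress and immune genes also stood on both sides. Of 27 interferon-stimulated genes 6 were higher (22.2%) and 4 lower (14.8%), against 16.2% and 15.7% of all genes. Irf1, a transcription factor of the interferon response, had 33.3, 30 and 26.8 CPM in the knock-out, against 13.8, 12.6 and 14.7 CPM in the wild-type (1.13 ± 0.13, adjusted p = 3.89e-07), and Ifitm1 was at 1.22 ± 0.17. The class I histocompatibility genes H2-K1 and H2-D1 were lower, at 30.8, 25.5 and 29 CPM in the knock-out, against 55.2, 53 and 55.5 CPM in the wild-type for H2-K1 (-0.94 ± 0.11, adjusted p = 6.19e-07) and -0.84 ± 0.13 for H2-D1. The lower count was 2 without knock-out replicate 1, knock-out replicate 3, wild-type replicate 1 or wild-type replicate 2. In the p53 list 10 of 29 rose (34.5%) and 3 fell (10.3%), or 7 fell with the day 2 libraries fitted alone. Of the 10 that rose, 3 lie on chromosome 8 or the far end of chromosome 12. Members included Trp53 at 0.25 ± 0.06, Mdm2 at 0.21 ± 0.07 and the adhesion gene Perp at 14, 13.9 and 14.2 CPM in the knock-out, against 27, 27.3 and 23.2 CPM in the wild-type (-0.88 ± 0.14, adjusted p = 3.59e-05). Heat shock and unfolded protein genes had 8 of 26 higher and 5 lower, or 30.8% and 19.2%, and 16 of the 26 were at 100 CPM or more, where 38.9% of all genes were higher and 6.34% lower. In this list the endoplasmic reticulum members Hspa5, Xbp1, Manf and Pdia6 were all lower, at -0.17 ± 0.06, -0.37 ± 0.09, -0.18 ± 0.06 and -0.24 ± 0.05. Herpud1, another such gene on chromosome 8, was higher (0.30 ± 0.11). That lower count was 3 without knock-out replicate 1, knock-out replicate 2, wild-type replicate 2 or wild-type replicate 3.

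Axon guidance genes, which encode ligands and receptors that steer growing cells and axons, were lower for 16 of 61 and higher for 3, or 26.2% and 4.92%, against 15.7% and 16.2% of all genes, with a median of -0.20. At 1 to 10 CPM, where 19 of them lie, 23.7% of all genes were lower. The count fell to 10 without knock-out replicate 1, to 9 without knock-out replicate 2 and to 7 without wild-type replicate 1. Slit2, a secreted guidance ligand gene, had 4.07, 2.5 and 2.84 CPM in the knock-out, against 12.5, 10.5 and 8.7 CPM in the wild-type (-1.75 ± 0.36, adjusted p = 0.00111). The ephrin gene Efnb1 was at -1.65 ± 0.33, the plexin gene Plxna2 at -1.61 ± 0.37 and the semaphorin gene Sema3d at -2.48 ± 0.47. The ephrin receptor gene Ephb3 rose, with 35.5, 35.6 and 27.5 CPM in the knock-out, against 19.5, 20.6 and 22.9 CPM in the wild-type (0.64 ± 0.11, adjusted p = 6.51e-05). Of 11 protocadherins 5 fell (45.5%, against 15.7% of all genes) and none rose, or 3 fell without wild-type replicate 1 or wild-type replicate 2. Of 46 channel and synaptic genes 10 fell (21.7%) and 5 rose (10.9%), or 5 lower without wild-type replicate 1 and 3 higher without wild-type replicate 2.

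Adhesion and matrix genes were mixed. Gja1, the gap junction gene of connexin 43, was named after its values were seen as an abundant lower gene, with 360.5, 379.8 and 359 CPM in the knock-out, against 698, 739.8 and 778 CPM in the wild-type (-1.01 ± 0.07, adjusted p = 1.71e-10). In the epithelial list 9 of 33 were higher (27.3%) and 4 lower (12.1%), against 16.2% and 15.7% of all genes. With the day 2 libraries fitted alone 14 were higher and 8 lower. The plakoglobin gene Jup had 135, 132 and 130.4 CPM in the knock-out, against 84.2, 83.9 and 83.7 CPM in the wild-type (0.66 ± 0.07, adjusted p = 3.24e-07), while the keratin gene Krt19 had 1.26, 1.68 and 1.6 CPM in the knock-out, against 6.38, 7.17 and 4.61 CPM in the wild-type. Laminin, nidogen and collagen genes had 4 higher and 4 lower of 23, or 17.4% each way, near the shares of all genes. At 100 CPM or more, where 11 of the 23 lie, 38.9% of all genes were higher and 6.34% lower. The higher count was 7 with the day 2 libraries fitted alone. It was 2 without knock-out replicate 1 and 1 without knock-out replicate 2 or wild-type replicate 2. Lama1, the laminin chain of early basement membranes, had 6.08, 8.46 and 7.04 CPM in the knock-out, against 18, 13.9 and 17.2 CPM in the wild-type (-1.19 ± 0.17, adjusted p = 9.1e-06), and Fn1, the fibronectin gene, had 511, 528 and 429.6 CPM in the knock-out, against 272, 202 and 291 CPM in the wild-type (0.94 ± 0.28, adjusted p = 0.0174). These matrix genes stood on opposite sides.

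Lists of other lineages moved in different directions. In the neuroectoderm list 4 of 13 were lower (30.8%, against 15.7% of all genes) and none higher, with a summed level of 271 to 300.4 CPM in the knock-out and 359.3 to 411.2 CPM in the wild-type. Of 14 trophoblast genes 5 were higher (35.7%) and 2 lower (14.3%), against 16.2% and 15.7% of all genes. Their sums were 543.7 to 595.1 CPM in the knock-out and 431.7 to 469.7 CPM in the wild-type. The higher count was 2 without wild-type replicate 1 and 3 without wild-type replicate 2. Mesoderm genes summed to 13.4 to 15.82 CPM in the knock-out and 14.2 to 16.23 CPM in the wild-type. Of 12 tested, 1 was called higher (8.33%) and none lower, with a median log2 fold change of -0.66. With the day 2 libraries fitted alone 2 were lower. Extraembryonic endoderm genes overlapped in their sums, at 996.7 to 1011 CPM in the knock-out and 884.2 to 1029 CPM in the wild-type. Of 17 tested, 2 were called higher (11.8%) and 3 lower (17.6%), against 16.2% and 15.7% of all genes. Their median log2 fold change was -0.55, and 8 were lower with the day 2 libraries fitted alone. In definitive endoderm 6 of 14 were lower (42.9%) and 1 higher (7.14%), against 15.7% and 16.2% of all genes. At 1 to 10 CPM, where 8 of the 14 lie, 23.7% of all genes were lower. Of the lower members Foxa2, Lhx1 and Cer1 are on the streak list too. The summed level of the definitive endoderm list went the other way, at 735.4, 729.8 and 661.6 CPM in the knock-out and 533.5, 564.3 and 497.1 CPM in the wild-type, without overlap. Its higher member, the thyrotropin-releasing hormone gene Trh, had 435, 429.8 and 360.4 CPM in the knock-out, against 199.6, 236 and 178 CPM in the wild-type (1.00 ± 0.11, adjusted p = 1.01e-06). The direction of that sum came from Trh. Without Trh the rest of the list summed lower in every knock-out library than in any wild-type library. Each of the 6 lower genes was under 1 CPM in every knock-out library. Cer1, which encodes a secreted antagonist of Nodal, BMP and Wnt, had no count in any knock-out library and 11.4, 10 and 4.92 CPM in the wild-type, at least 175-fold lower with 3 counts set over the knock-out group.

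**Figure D4:**
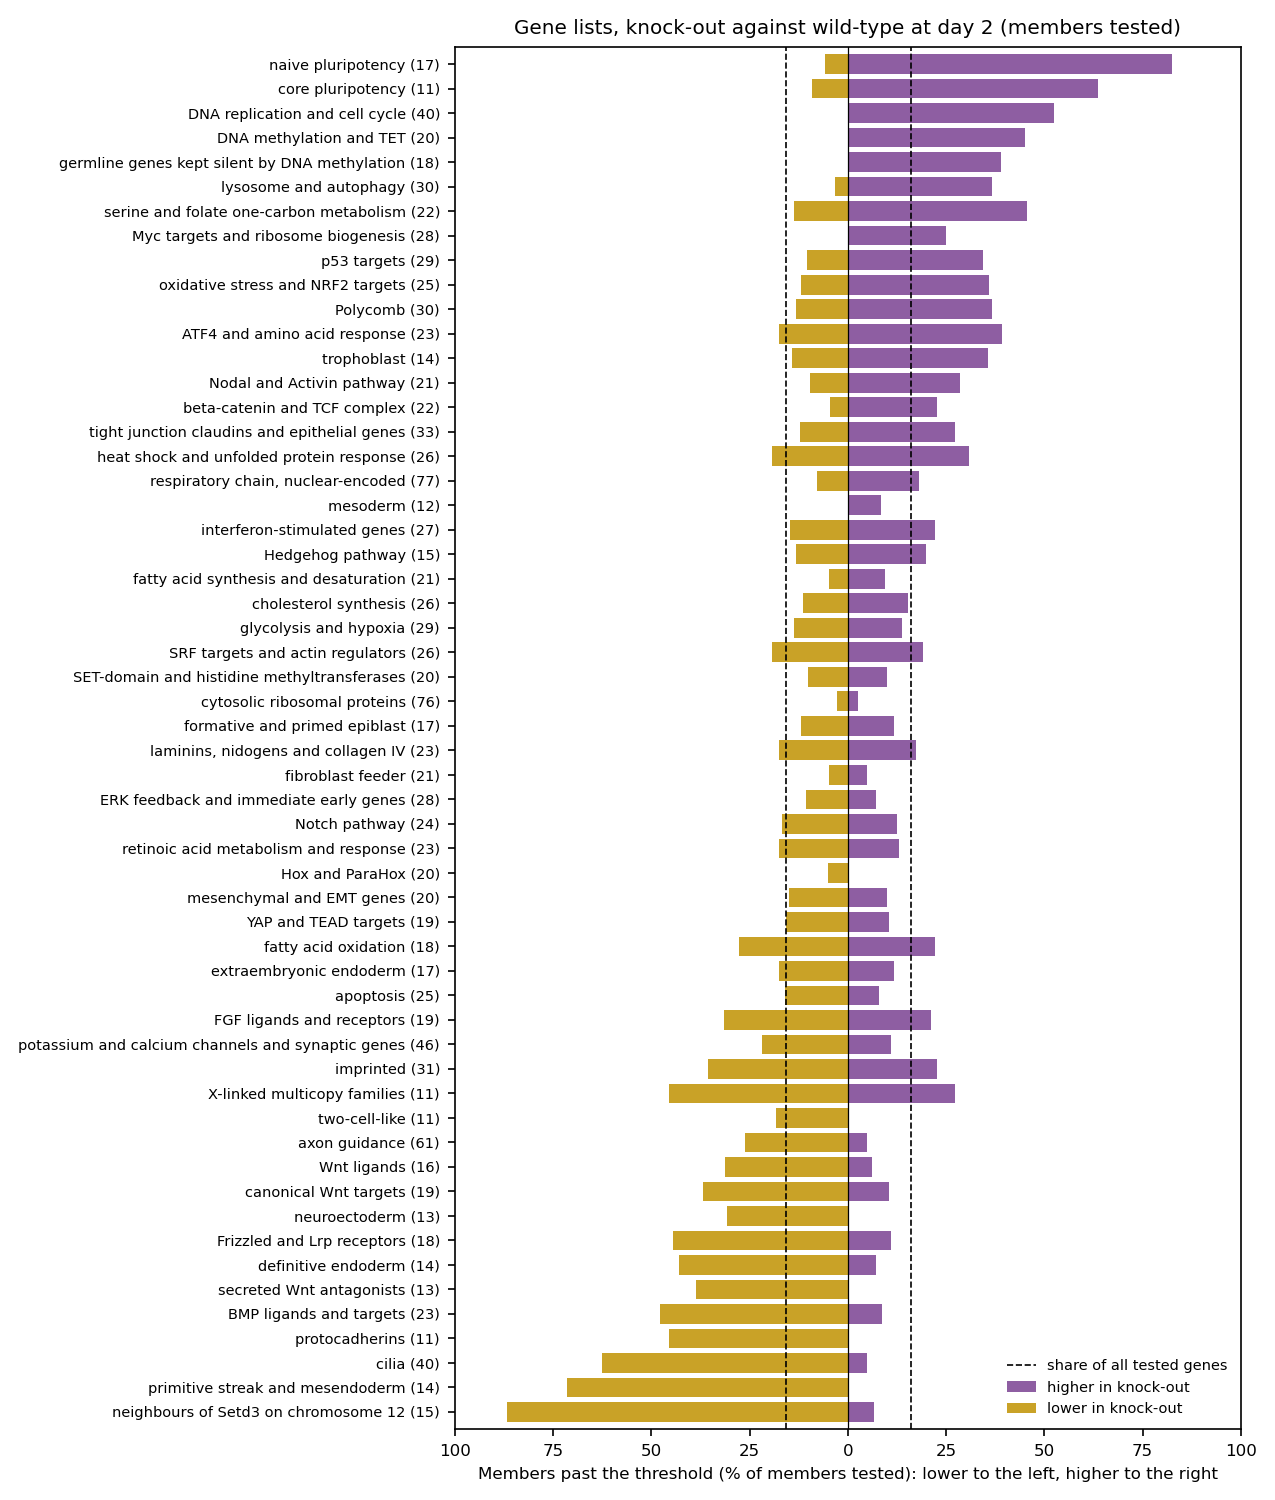
Bars give, for each gene list with at least 10 tested members, the share of its tested members called higher in the knock-out (right) and lower (left) at day 2. The number tested stands behind each name and dashed lines mark the shares of all 17144 genes, 16.2% higher and 15.7% lower. Cilia, with 62.5% lower, are among the lists at the bottom, and cell cycle genes, with 52.5% higher, among those at the top.

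The effect of the genotype at day 2 was partly that of the undifferentiated cells. Of the genes called higher at day 2, 1102 (39.6%) were called higher at day 0 as well, and of those called lower, 864 (32%) were lower at day 0. Of all genes tested, 10.6% were called higher and 10.5% lower at day 0. Opposite calls were made for 70 genes higher at day 2 and lower at day 0 and for 24 lower at day 2 and higher at day 0. A call at day 2 alone does not show a difference between the days, which was tested directly. That test called 1259 genes, or 7.34%, with the day 2 effect above that of day 0 for 732, or 4.27%, and below for 527, or 3.07%. Of 1611 genes called higher at day 2 but not at day 0, 407 passed it, and of 1809 called lower at day 2 but not at day 0, 337 passed it. Without wild-type replicate 1 of day 2, the test called 731 genes, 485 above and 246 below. The count below was 267 without knock-out replicate 1 of day 2, 350 without knock-out replicate 3 of day 2 and 290 without wild-type replicate 1 of day 0.

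Fgf5, the ligand gene that marks the formative state, led the genes of at least 10 CPM, without overlap at day 2, whose day 2 effect was above that of day 0. At day 2 it had 131, 120.0 and 130.0 CPM in the knock-out, against 150.2, 132 and 133 CPM in the wild-type (-0.12 ± 0.07, adjusted p = 0.218), without a call, and at day 0 1.25 ± 0.229 CPM in the knock-out and 21.5 ± 3.11 CPM in the wild-type (SD, n = 3 each) (-4.11, adjusted p = 3.52e-17). The difference was 3.98 ± 0.16 (adjusted p = 2.38e-14). Krt8, a keratin gene of simple epithelia, was at -0.46 ± 0.25 at day 2 (adjusted p = 0.178) and -3.12 at day 0, a difference of 2.65 ± 0.39 (adjusted p = 0.000538). Pdlim3 on chromosome 8, which encodes an actin-binding LIM protein, was at 0.23 ± 0.18 at day 2 (adjusted p = 0.372) and -2.65 at day 0, and Car4, a carbonic anhydrase gene, at -0.51 ± 0.15 (adjusted p = 0.0129) and -2.92. Car4 lost its day 2 call without knock-out replicate 1 or knock-out replicate 2, and Krt8 gained one with the day 2 libraries fitted alone. Nsg2, which encodes a neuronal vesicle protein, was lower at day 0 (-1.83, adjusted p = 1.39e-05) and higher at day 2, with 15.6, 12.1 and 16.5 CPM in the knock-out, against 6.48, 7.8 and 11 CPM in the wild-type (0.80 ± 0.21, adjusted p = 0.00481). For Fgf5, Krt8, Pdlim3 and Car4 the genotype difference was smaller at day 2 than at day 0.

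Most of the 6 genes with the lowest differences had no call in the stem cells. Emilin2 was at -1.87 ± 0.29 at day 2 and 0.24 at day 0, Slit2 at -1.75 ± 0.36 and 0.32, and Id1 as given above. Plce1, a phospholipase C gene, was higher at day 0 (0.85, adjusted p = 0.00196) and lower at day 2, with 5.62, 3.67 and 4.74 CPM in the knock-out, against 11.9, 10.8 and 8.39 CPM in the wild-type (-1.15 ± 0.19, adjusted p = 5.02e-05). Ptn, which encodes the growth factor pleiotrophin, and Cyr61, a matricellular YAP target, differed by -1.80 ± 0.53 (adjusted p = 0.0453) and -1.73 ± 0.48 (adjusted p = 0.0368). Both of these differences lost their call when most single libraries were left out. Vcan, which had no call at day 0 (0.18), had the lowest adjusted p among the named genes whose day 2 effect was below that of day 0 (-1.28 ± 0.13, adjusted p = 1.29e-06).

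**Figure D5:**
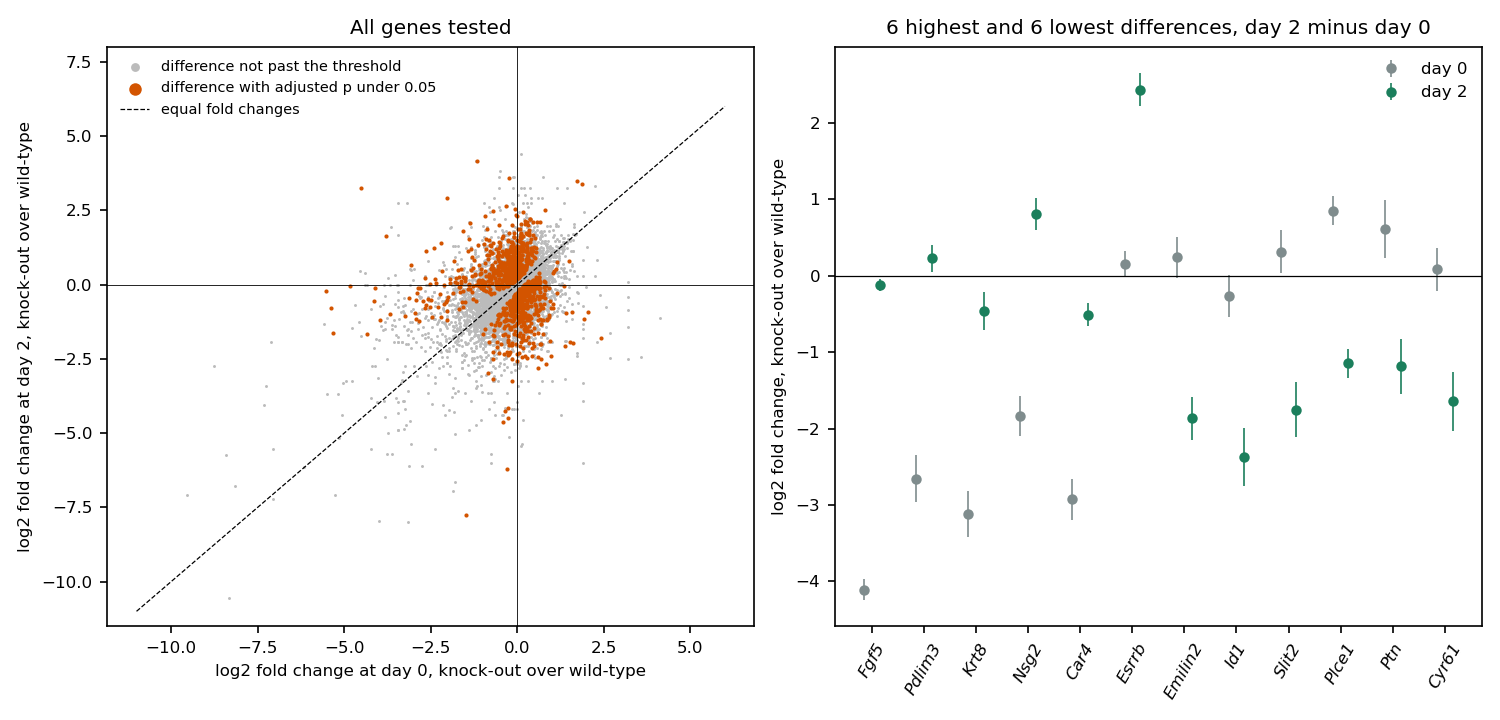
Left, log2 fold changes of knock-out over wild-type at day 0 and day 2 for all tested genes, with genes of differing effects in orange and the line of equal effects dashed. Right, the 6 highest and 6 lowest differences of effects past the threshold among genes of at least 10 CPM whose day 2 groups do not overlap, with fold changes at day 0 in grey and at day 2 in green and error bars of the fold change over the square root of F. Fgf5 stood at -4.11 at day 0 and -0.12 at day 2, and Esrrb at 0.15 and 2.43.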

How the data were processed

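The deposited table held the authors' raw counts per gene, not normalized. Reads were handled with Trimmomatic and HISAT2 on GRCm38.p6, per the submitters' processing notes, while versions, the counter, its annotation and strand setting, and the treatment of multimapping reads are not given in the sources used. Of 55401 entries, 55141 matched GENCODE M21 by gene ID, which gave coordinates, gene types and 1830 of 2090 blank names, T among them, filled after the table was seen. Counts of all 24 libraries were fitted in R 4.3.3 with edgeR 4.0.16 (filterByExpr, TMM, robust quasi-likelihood fit of 8 group means with 16 residual degrees of freedom, Benjamini-Hochberg over 17144 genes). The script was tested on simulated data. Knock-out minus wild-type was tested at day 2 and day 0, and the difference of those effects directly. Replicate numbers did not pair samples, since deviations of same-numbered libraries correlated at 0.01, -0.01 and -0.03, so no block was used. Alternatives were DESeq2 1.42.0 and its size factors, no low-count filter, the contrast's groups alone, a replicate block, leaving out stretches of chromosomes 8 and 12, and leaving out each library. Named genes are Setd3, the 12 highest and lowest fold changes of called, non-overlapping genes of at least 10 CPM, the 6 of at least 100 CPM, the 6 of the day difference, clone and model names left out, and members of 58 lists; a few of these are not reported here. Members, lists and rules were chosen with earlier results of these data known. Levels in CPM carry counting error, with a floor of 3 counts at 0.144 to 0.158 CPM.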

Additional observations from a re-analysis of the deposited data

Results flagged for a closer look

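The genotype effect at day 2 differed from that at day 0 for 1259 genes, or 7.34% of those tested, by edgeR's test of the difference itself. Of 209 genes named in the text, 87 were among them, 53 with the day 2 effect above that of day 0 and 34 below. Some of the 209 were named because this difference was large, so their share cannot be compared with that of all genes. Values are log2 fold changes of knock-out over wild-type at day 2 minus those at day 0. Genes of the naive network, the formative state and Nodal signalling with a higher effect at day 2 were Fgf5 (3.98), Esrrb (2.28), Nr5a2 (1.85), Klf2 (1.78), Zfp42 (1.62), Tcl1 (1.52) and Tdgf1 (0.89). Among the other genes of large change the effect was above that of day 0 for Pdlim3 (2.88), Krt8 (2.65), Nsg2 (2.64), Car4 (2.42), Jam2 (2.14), Triml1 (1.83), Triml2 (1.64), AU018091 (1.82), Uba1y (1.75), Bnc2 (1.44) and Zfp936 (1.42). Signalling genes with a day 2 effect above that of day 0 were Axin2 (1.40), Wnt9a (1.19), Bmp4 (1.07), Gli1 (0.77) and Ptch1 (0.71). In DNA methylation, imprinting, the germline and chromatin they were Dnmt3l (1.19), Dnmt3b (0.80), Dnmt3a (0.59), Tet2 (0.64), Uhrf1 (0.21), Ascl2 (1.48), Phlda2 (1.15), Cdkn1c (1.03), Hormad1 (1.69), Rpl10l (1.47), Mtf2 (0.38), Eed (0.29) and Smyd3 (0.45). In metabolism, stress response and adhesion they were Mt2 (1.54), Mt1 (1.25), Nupr1 (1.47), Ifitm1 (1.24), Irf1 (1.14), Tdh (1.13), Tfeb (1.07), Cpt1a (1.04), Pdk1 (0.75), Hk1 (0.49), Asns (0.42), Slc3a2 (0.39), Shmt1 (0.35), Shmt2 (0.30), Hexa (0.37), Gabarapl2 (0.41) and Jup (0.42). Below the effect of day 0 stood the cilia genes Kif3b (-0.35), Ift80 (-0.45), Ift74 (-0.46), Ift81 (-0.48), Dync2h1 (-0.58), Dync2li1 (-0.67) and Ift57 (-0.72). Signalling and guidance genes below it were Lgr5 (-3.37), Fzd1 (-1.78), Fzd3 (-0.68), Id1 (-2.11), Smad6 (-1.02), Bmpr1b (-1.09), Socs3 (-1.04), Sema3d (-2.75), Slit2 (-2.07), Efnb1 (-1.31), Ptn (-1.80), Cyr61 (-1.73), Plce1 (-2.0) and Prkcb (-1.14). Matrix, cytoskeletal and other genes below it were Emilin2 (-2.11), Vcan (-1.28), Fstl1 (-1.27), Lama1 (-1.32), Acta2 (-2.06), Gja1 (-0.46), Eml1 (-1.68), Zc3hav1l (-1.50), Pgap1 (-0.70), Cbx2 (-0.46), Phc2 (-0.71), Gpx3 (-1.04) and Mthfd2l (-0.98). Groups of 3 libraries are too small for a test of single outlying libraries.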

How the results depend on the processing

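At day 2 the counts of called genes stayed within 1.5 times of those reported under every alternative, in total and in each direction. Leaving out single day 2 libraries gave 4157 to 4740 called genes, 2189 to 2410 of them higher and 1958 to 2330 lower, and 985 to 1263 of at least 2-fold, with 257 to 356 higher and 728 to 907 lower. With the groups of the contrast fitted alone, day 0 had 1587 called genes, 701 higher and 886 lower, against 3611, 1810 and 1801, and 322 day 2 effects were below those of day 0, against 527. Leaving out single day 0 libraries gave 2649 to 3594 called at day 0, 1155 to 1880 higher and 1290 to 1714 lower. The test of the difference between days called 731 to 1645 genes without single libraries, 485 to 872 above and 246 to 773 below, fewest without wild-type replicate 1 of day 2 and most without knock-out replicate 3 of day 0. The cause was not tested. A replicate block, although the numbers did not pair the samples, gave 5525 called genes at day 2, 2819 higher and 2706 lower, and changed no other of these counts by over 1.5 times. No named gene reversed. Among the genes named by size, Krt8 was called at day 2 with the day 2 libraries alone (-0.47, adjusted p = 0.0192), and calls were lost by Car4 and Ptn at day 2 without 2 and 3 of the libraries. The day difference of Cyr61 lost its call under the replicate block, and those of Ptn and Cyr61 without the low-count filter and with the groups of the contrast alone. Counts of small lists moved with single libraries as given beside them. Genes under 1 CPM rested on few counts, and 2.33% of them were called higher and 8.07% lower.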
